A study of Mus musculus with 16 samples.

Results

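The genes described here carry sodium or glucose across the heart cell membrane or regulate that transport: Slc5a1, Slc5a2, Slc8a1, Atp1b1 and Fxyd1. They were chosen by name, with earlier results of these data known. An inhibitor of the sodium-glucose cotransporter SGLT2 has been proposed to act on the heart through such transporters. The genes are 5 of the 53764 rows of the deposited count table. Messenger RNA was sequenced from left ventricle of male C57BL/6J mice, 4 libraries in each of 4 groups and 16 in all. The mice were 8 weeks old when the diets began and stayed on them for 4 months. The groups were a high fat and high sucrose diet (HFHS) with ertugliflozin, the same HFHS diet untreated, a low-fat control diet (CD) with ertugliflozin, and CD untreated. Ertugliflozin, an SGLT2 inhibitor, was mixed into the food at 0.5 mg per g. The submitters describe the sequenced ventricles as representative samples of a larger study, and the errors given here describe those selected animals.

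SGLT1 and SGLT2 move glucose into a cell together with sodium. SGLT2 does most of the glucose reabsorption in the kidney's proximal tubule, while SGLT1 serves the intestine and is also found in heart. In cardiomyocytes the sodium pump, built of a catalytic alpha subunit and a beta subunit, expels sodium. Phospholemman, the product of Fxyd1, restrains the pump until it is phosphorylated, and the sodium-calcium exchanger NCX1, the product of Slc8a1, uses the sodium gradient to remove calcium after each beat.

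Libraries held 16554399 to 21452212 counts in HFHS ertugliflozin, 14637669 to 18745934 in HFHS untreated, 18278761 to 20293743 in CD ertugliflozin and 15897779 to 18701291 in CD untreated. Levels are given as CPM, read counts relative to library size after TMM scaling, as mean ± SD of 4 libraries unless stated. Tests are edgeR's quasi-likelihood test over 15841 genes with Benjamini-Hochberg adjustment and a threshold of 0.05, with log2 fold changes ± SE. Ventricular cardiomyocyte markers were abundant in all 16 libraries, with 10 markers summing to 93000 to 100400 CPM in HFHS ertugliflozin, 88230 to 104100 CPM in HFHS untreated, 98330 to 109500 CPM in CD ertugliflozin and 97180 to 108100 CPM in CD untreated. Some libraries stood apart in markers of neighbouring tissue. Atrial markers summed to as much as 2300 CPM in CD untreated and to 858 to 1123 CPM in the other groups, and valve and cartilage markers to as much as 236 CPM in CD untreated and at most 81.2 CPM in the others. In bulk tissue, fewer cells of a type and less RNA per cell cannot be told apart.

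The glucose cotransporters were the least abundant of the set. Slc5a2 (ENSMUSG00000030781), the gene of SGLT2 and so of the drug's target, was close to absent. Its reads numbered 2, 0, 2 and 1 in HFHS ertugliflozin, 0, 0, 0 and 1 in HFHS untreated, 0, 3, 0 and 0 in CD ertugliflozin and 1, 0, 0 and 1 in CD untreated. That is 11 reads in all, with 9 libraries at 0. The group sums were 5 reads in HFHS ertugliflozin (exact Poisson 95% interval 1.62 to 11.7), 1 in HFHS untreated (0.0253 to 5.57), 3 in CD ertugliflozin (0.619 to 8.77) and 2 in CD untreated (0.242 to 7.23). These intervals cover counting error only, and all 4 overlap. A level of 3 reads, the upper limit that a count of 0 allows, corresponds to 0.141 to 0.211 CPM depending on the library. The gene was below the low-count filter, and without that filter its smallest edgeR adjusted p over the 7 comparisons was 0.878.

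Slc5a2 lies on chromosome 7 from 128265657 to 128272430 on the plus strand of GRCm38. Its exons overlap those of BC017158 on the opposite strand, which had 119 to 191 reads per library. The libraries marked strand, but the strand setting of the counting is not given in the sources used here, so the few Slc5a2 reads cannot be assigned with certainty. Pdzk1ip1, whose product MAP17 is a partner protein of SGLT2, had 14 reads in all and 0 to 2 per library. Of 12 kidney tubule markers, 8 had at most 3 reads in every library, among them Slc34a1, Umod, Slc12a1 and Miox. The others, Lrp2, Cubn, Slc12a3 and Aqp2, exceeded 3 reads in some library, and Cubn passed the low-count filter. All 12 summed to between 5.36 CPM, in a CD ertugliflozin library, and 15.9 CPM, in a CD untreated library.

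Slc5a1 (ENSMUSG00000011034, chromosome 5 from 33104219 to 33162870, plus strand), the gene of SGLT1, was detected in all 16 libraries but at a low level. It had 7, 22, 17 and 11 reads in HFHS ertugliflozin, 12, 15, 11 and 5 in HFHS untreated, 17, 15, 11 and 23 in CD ertugliflozin and 25, 18, 31 and 27 in CD untreated. CD untreated had the highest group sum, though its replicate 2, at 18 reads, lay below single libraries of both ertugliflozin groups. Every HFHS untreated library lay below every CD untreated library. The group sums were 57 reads in HFHS ertugliflozin (exact Poisson 95% interval 43.2 to 73.9), 43 in HFHS untreated (31.1 to 57.9), 66 in CD ertugliflozin (51.0 to 84.0) and 101 in CD untreated (82.3 to 122.7). Here too the intervals cover counting error only and not the spread between animals, and the sums are not scaled for depth. Levels were 0.809 ± 0.403 CPM in HFHS ertugliflozin, 0.667 ± 0.243 CPM in HFHS untreated, 0.863 ± 0.236 CPM in CD ertugliflozin and 1.42 ± 0.297 CPM in CD untreated.

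The question for Slc5a1 was whether diet or drug moved it, and no comparison passed the test. HFHS untreated against CD untreated gave −1.09 ± 0.35, a fold of 0.471 with a 95% interval of 0.283 to 0.784 (edgeR adjusted p = 0.114). On the deposited regularized log2 values, a transformation that shrinks low counts, the same difference was −0.115 (limma adjusted p = 0.106), and over the other alternatives it reached −1.36 with marker scores as covariates (edgeR adjusted p = 0.332). In that comparison 4.22% of all genes tested were lower without overlap between the groups, and 2.06% changed in either direction. With the drug in both diets the difference was −0.13 ± 0.35, with an interval of −0.87 to 0.62 (edgeR adjusted p = 0.893). On CD, ertugliflozin against untreated gave −0.71 ± 0.33 (edgeR adjusted p = 0.806), with overlapping groups. On HFHS the same comparison gave 0.25 ± 0.38, with an interval of −0.545 to 1.049 (edgeR adjusted p = 1.00). Averaged over both drug arms, HFHS against CD gave −0.61 ± 0.25 (edgeR adjusted p = 0.124), with 7 of 8 HFHS libraries below the CD median. The difference between the drug's effect on HFHS and on CD was 0.96 ± 0.50, with an interval of −0.09 to 2.01 (edgeR adjusted p = 1.00). Depth limits these values, since counting error alone amounts to 24.5% of the mean Slc5a1 count.

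**Figure D1:**
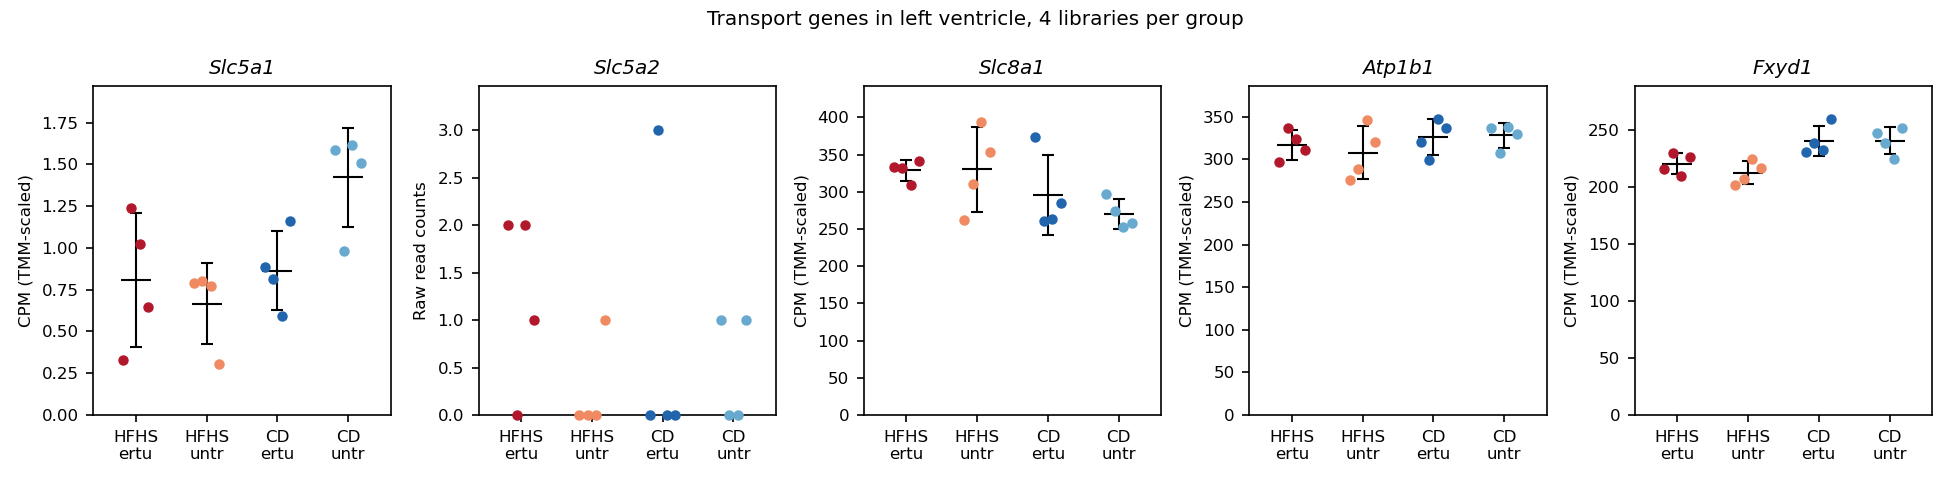
Levels of the 5 genes in each library (points, n = 4 per group), with HFHS groups left of CD groups and ertugliflozin left of untreated within a diet. The vertical axis is CPM scaled by TMM, except for Slc5a2, where it is raw read counts; horizontal bars are means and whiskers SD. Slc5a2 has 0 to 3 reads in every library, and the 8 HFHS libraries of Fxyd1 lie between 201.8 and 229.3 CPM, against 224.2 to 259.1 CPM on CD.

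Slc8a1 (ENSMUSG00000054640, chromosome 17 from 81373105 to 81738377, minus strand), the gene of NCX1, was read abundantly. Its levels were 333, 332, 309 and 341 CPM in HFHS ertugliflozin, 262, 310, 394 and 354 CPM in HFHS untreated, 374, 261, 263 and 286 CPM in CD ertugliflozin and 297, 274, 252 and 258 CPM in CD untreated. The lowest HFHS value, in HFHS untreated replicate 1, and the highest CD value, in CD ertugliflozin replicate 1, made the diets overlap. Group means were 329 ± 13.6 CPM in HFHS ertugliflozin, 330 ± 56.9 CPM in HFHS untreated, 296 ± 53.2 CPM in CD ertugliflozin and 270 ± 19.96 CPM in CD untreated. Of the 8 HFHS libraries 7 lay above the CD median.

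The Slc8a1 estimate was higher on HFHS without passing the threshold. HFHS against CD averaged over both drug arms gave 0.22 ± 0.09, an interval of 0.04 to 0.40 (edgeR adjusted p = 0.108). It passed with limma-voom and sample weights (0.24, adjusted p = 0.0455), without CD ertugliflozin replicate 1 (0.29, edgeR adjusted p = 0.0127) and without HFHS untreated replicate 1 (0.27, edgeR adjusted p = 0.0288). Without drug, HFHS against CD gave 0.29 ± 0.12 (edgeR adjusted p = 0.243), and with drug 0.15 ± 0.12 (edgeR adjusted p = 0.549). Ertugliflozin against untreated gave 0.13 ± 0.12 on CD (edgeR adjusted p = 0.913) and −0.01 ± 0.12 on HFHS (edgeR adjusted p = 1.00), with an interval of −0.12 to 0.24 averaged over diets. Per 1000 CPM of the summed ventricular cardiomyocyte markers, Slc8a1 stood at 3.38 ± 0.224 CPM on HFHS and 2.73 ± 0.304 CPM on CD (SD, n = 8 each), and all 8 HFHS libraries were above the CD median. The marker sum was itself lower on HFHS, at 97310 ± 5532 CPM against 103600 ± 4986 CPM on CD, which widens the difference in this ratio. Exons of Slc8a1 overlap Gm11096 and AC122399.1 on the opposite strand, of which Gm11096 had 0 to 2 reads per library.

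The sodium pump members follow. Atp1b1 (ENSMUSG00000026576, chromosome 1 from 164437109 to 164458355, minus strand) encodes the main beta subunit, which carries the pump to the membrane. Fxyd1 (ENSMUSG00000036570, chromosome 7 from 31051678 to 31057199, minus strand) encodes phospholemman. The 250 bases before the start site of each are shown because the products work on one pump and Fxyd1 passed the diet test described next, while Atp1b1 did not. They come from RefSeq on GRCm38.p6, where 4 of the 5 genes had a promoter entry, and both read 5′ to 3′ on the minus strand, Atp1b1 at chr1:164458356-164458605 and Fxyd1 at chr7:31054854-31055103. Capitals mark GC boxes (GGGCGG) and CCAAT boxes (CCAAT), searched on both strands with no overlaps among them.
Atp1b1: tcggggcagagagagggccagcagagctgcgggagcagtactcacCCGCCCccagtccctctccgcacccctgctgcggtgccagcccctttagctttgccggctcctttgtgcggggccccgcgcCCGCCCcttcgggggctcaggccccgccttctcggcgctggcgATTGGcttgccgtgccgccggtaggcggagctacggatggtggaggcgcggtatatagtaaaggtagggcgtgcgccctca
Fxyd1: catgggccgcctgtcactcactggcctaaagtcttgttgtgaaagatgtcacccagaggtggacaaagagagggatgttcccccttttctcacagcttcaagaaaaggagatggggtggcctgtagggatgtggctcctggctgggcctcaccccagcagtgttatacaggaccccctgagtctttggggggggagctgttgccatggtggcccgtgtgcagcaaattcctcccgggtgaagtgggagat
The Atp1b1 window held 2 GC boxes and 1 CCAAT box, all on the opposite strand and so printed as CCGCCC and ATTGG, beginning 205, 124 and 81 bases before the start. The Fxyd1 window held neither motif, which says only that these letters are not in this window. Among 32851 promoter windows of the same length, 32.7% held a GC box and 33.8% a CCAAT box. GC content was 70.4% for Atp1b1 and 57.2% for Fxyd1, against a median of 52.4% over all windows. The RefSeq start of Fxyd1 lies within the span that GENCODE gives the gene.

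Fxyd1 was the 1 member that passed a test, and it was lower on HFHS. Its levels were 215, 229, 210 and 226 CPM in HFHS ertugliflozin, 202, 207, 225 and 216 CPM in HFHS untreated, 230, 238, 232 and 259 CPM in CD ertugliflozin and 247, 238, 224 and 251 CPM in CD untreated. All 8 HFHS libraries lay below the CD median and 5 of them below the lowest CD library, so the diets differed with a small overlap. The 8 HFHS libraries averaged 216 ± 9.81 CPM and the 8 CD libraries 240 ± 11.7 CPM (SD). HFHS against CD averaged over both drug arms gave −0.15 ± 0.04, a fold of 0.900 with an interval of 0.853 to 0.950 (edgeR adjusted p = 0.0127). In that comparison 11.6% of all genes tested changed, 6.59% higher and 5.01% lower and 1 of the 4 members tested was among them.

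Neither drug arm passed by itself for Fxyd1. Without drug HFHS against CD gave −0.18 ± 0.05 (edgeR adjusted p = 0.0871), with overlapping groups, and DESeq2 put the same difference past the threshold (adjusted p = 0.0343). With drug it gave −0.13 ± 0.05 (edgeR adjusted p = 0.207), with groups that did not overlap, as for 6.38% of all genes in that direction. In that arm 3.69% of all genes changed and 0 of the 4 members did. The diet-by-drug term was 0.05 ± 0.07 (edgeR adjusted p = 1.00). Ertugliflozin against untreated, averaged over diets, gave 0.02 ± 0.04 with an interval of −0.05 to 0.10 (edgeR adjusted p = 0.955).

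Some cardiomyocyte markers were lower on HFHS, like Fxyd1. In the averaged diet comparison 5 of 10 ventricular cardiomyocyte markers fell and 0 rose, with a median of −0.16. Of all genes 5.01% fell and 6.59% rose in that comparison. The markers that fell were the myosin light chains Myl2 (−0.21 ± 0.04) and Myl3 (−0.19 ± 0.03), the troponins Tnnt2 (−0.19 ± 0.05) and Tnni3 (−0.21 ± 0.05) and the calcium pump inhibitor Pln (−0.16 ± 0.03). The other markers did not pass (edgeR adjusted p = 0.367 to 0.928). They were Myh6 (−0.08 ± 0.05), Actc1 (−0.03 ± 0.07), Atp2a2 (−0.01 ± 0.05), Myom2 (−0.17 ± 0.12) and Ryr2, whose estimate was positive (0.11 ± 0.08). The 10 markers summed to 97310 ± 5532 CPM on HFHS and 103600 ± 4986 CPM on CD (SD, n = 8 each). Per 1000 CPM of that sum, Fxyd1 stood at 2.22 ± 0.0706 CPM on HFHS and 2.32 ± 0.0863 CPM on CD, with all 8 HFHS libraries below the CD median and 1 below the lowest CD library. The part of these markers in the Fxyd1 difference was not tested. With atrial and valve marker scores as covariates, the Fxyd1 difference was −0.18 ± 0.05 (edgeR adjusted p = 0.0399). With CD untreated replicates 2 and 3 left out, the libraries of highest valve score, it was −0.18 ± 0.04 (edgeR adjusted p = 0.0132). That fit kept CD untreated replicate 1, the library of highest atrial score (2.7).

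Atp1b1 varied little. Its levels were 297, 337, 323 and 311 CPM in HFHS ertugliflozin, 276, 289, 346 and 320 CPM in HFHS untreated, 320, 300, 347 and 337 CPM in CD ertugliflozin and 337, 307, 338 and 330 CPM in CD untreated. All 4 groups overlapped, with means of 317 ± 17.2 CPM in HFHS ertugliflozin, 308 ± 31.6 CPM in HFHS untreated, 326 ± 20.8 CPM in CD ertugliflozin and 328 ± 14.5 CPM in CD untreated. HFHS against CD averaged over drug arms gave −0.07 ± 0.05, with an interval of −0.17 to 0.03 (edgeR adjusted p = 0.398). Ertugliflozin against untreated averaged over diets gave 0.02 ± 0.05, with an interval of −0.08 to 0.12 (edgeR adjusted p = 0.982). Nme7, on the opposite strand, overlaps its exons and had 45 to 96 reads per library.

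**Figure D2:**
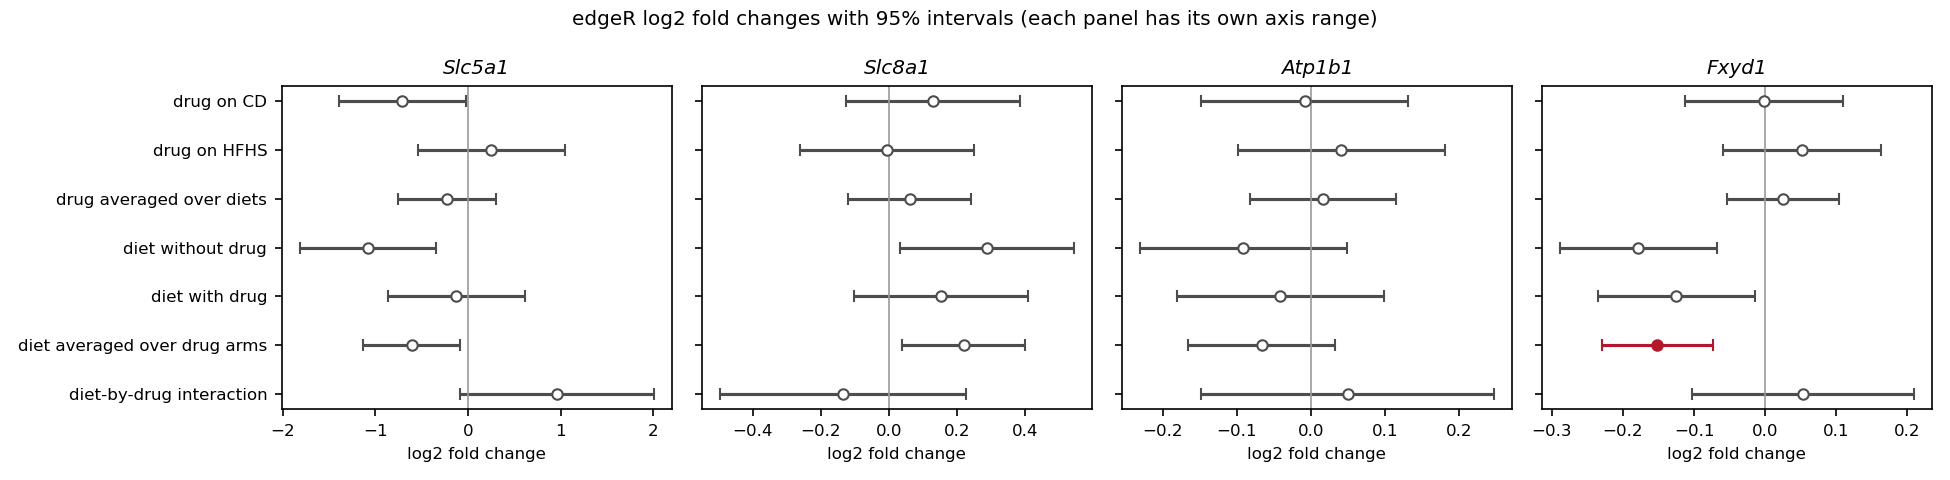
Log2 fold changes (horizontal axis) of the 4 tested members in 7 comparisons, with 95% intervals as bars; drug comparisons are ertugliflozin minus untreated and diet comparisons HFHS minus CD. The filled point, Fxyd1 at −0.15 for diet averaged over drug arms, is the 1 that passed edgeR's adjusted threshold of 0.05; each panel has its own axis range.

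Atp1b2, a further beta subunit of the pump, rose in the averaged diet comparison by 0.20 ± 0.06 (edgeR adjusted p = 0.0345), at 28.4 ± 2.69 CPM on HFHS and 24.8 ± 1.59 CPM on CD. Its call ended without CD untreated replicate 1 or 2, CD ertugliflozin replicate 2 or 3, HFHS untreated replicate 2 or 4, or HFHS ertugliflozin replicate 1 or 2, each left out alone (edgeR adjusted p = 0.0515 to 0.0815). Over all 16 fits without 1 library the values were 0.17 to 0.23.

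On the scale of CPM per kilobase of all annotated exons, the members ranked from Fxyd1 (104 ± 7.40, SD of 16 libraries) and Atp1b1 (104 ± 6.92), which did not differ beyond their spread, through Slc8a1 (16.3 ± 2.37) and Slc5a1 (0.229 ± 0.0978) to Slc5a2 (0.0133). Their ranks among 15841 genes were 423 for Fxyd1, 428 for Atp1b1, 2863 for Slc8a1 and 14950 for Slc5a1. With the length of the longest principal transcript instead, a choice made after seeing the data, Fxyd1 stood at 368, Atp1b1 at 124 and Slc8a1 at 96.3, so the spacing among these 3 depends on the length model while Slc5a1 and Slc5a2 stayed lowest.

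Across the 16 libraries, Pearson r of log2 CPM was taken as the measure of likeness, and the libraries share diet, depth and tissue composition. Fxyd1 was most like Ndufs7 (r = 0.94), Arl3 (0.94) and Echs1 (0.93), and these stayed at 0.89, 0.89 and 0.89 for deviations from group means. Slc8a1 was most like Usp9x (0.91), Prkaa2 (0.91) and Atp6v0a2 (0.90). Atp1b1 was most like Helt (0.84), Slc31a1 (0.83) and Maged1 (0.82), and Slc5a1, with few reads, most like Ddx20 (0.78), BB123696 (0.78) and Uckl1 (0.75). Between members, Fxyd1 and Atp1b1 had r = 0.55, and 0.44 for deviations from group means.

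The wider lists of sodium and glucose transport held 86 genes with the members, of which 59 passed the low-count filter. The lists were chosen with earlier results of these data known, so their shares are a description and not a test. In the averaged diet comparison 9 rose and 4 fell, 22.0% of those tested, where 11.6% of all genes changed, 6.59% upward and 5.01% downward. The median was 0.04 against −0.01 for all genes. Without drug 3 rose (Slc4a4, Scn4a and Scn4b) and 0 fell, where 1.45% of all genes rose and 0.619% fell. With drug 4 rose (Slc4a4, Scn4a, Scn4b and Oxsr1) and 2 fell (Slc2a1 and Slc2a4), where 2.15% of all genes rose and 1.53% fell. For ertugliflozin against untreated, edgeR called 0 of the 59 on CD, where 0.0189% of all genes changed, and 0 on HFHS, where 0.0% did. At an unadjusted p under 0.05 these were 2 on CD, where 6.17% of all genes were under it, and 0 on HFHS, where 4.02% were, and DESeq2 and limma-voom also called 0 of the listed genes. The drug averaged over diets and the diet-by-drug term likewise had 0 calls among the 59, with 2 for the drug and 1 for the diet-by-drug term at an unadjusted p under 0.05 (5.57% and 4.27% of all genes), and 0 by DESeq2 and limma-voom.

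Of 13 sodium-coupled SLC5 carriers 3 were tested, and beside Slc5a1 the inositol carrier Slc5a3 (−0.27 ± 0.23, edgeR adjusted p = 0.487) and the vitamin carrier Slc5a6 (−0.13 ± 0.07, edgeR adjusted p = 0.214) did not pass for diet either. The facilitative glucose transporters, which need no sodium, held 3 falls and no rise among 9 tested in the averaged diet comparison. Of all genes 5.01% fell and 6.59% rose there. Slc2a4, the gene of the insulin-responsive GLUT4, averaged 367 ± 23.1 CPM on HFHS and 448 ± 38.4 CPM on CD (SD, n = 8 each) and changed by −0.29 ± 0.05 (edgeR adjusted p = 0.00123), with no overlap between diets, as for 0.802% of all genes (HFHS lower). Slc2a1, the gene of the basal transporter GLUT1, averaged 12.7 ± 1.98 CPM on HFHS and 17.4 ± 3.11 CPM on CD and changed by −0.46 ± 0.10 (edgeR adjusted p = 0.00608). Slc2a8 changed by −0.18 ± 0.06 (edgeR adjusted p = 0.0459) and kept that call only without CD untreated replicate 2, CD ertugliflozin replicate 2 or 3, or HFHS ertugliflozin replicate 1. Leaving out any other library ended it (edgeR adjusted p = 0.05 to 0.10). Over all 16 fits without 1 library the values were −0.20 to −0.14. The call of Slc2a8 also ended with no low-count filter (edgeR adjusted p = 0.0839) and with DESeq2 (adjusted p = 0.0505). With drug in both diets, the call of Slc2a1 ended without any 1 of CD untreated replicate 2, CD ertugliflozin replicates 2, 3 and 4, HFHS untreated replicates 2 and 4 and HFHS ertugliflozin replicates 1, 2 and 4 (edgeR adjusted p = 0.0507 to 0.13). It also ended with no low-count filter (−0.54, edgeR adjusted p = 0.0754), with limma on the deposited regularized log2 values (−0.27, adjusted p = 0.055) and with atrial and valve marker scores as covariates (−0.59, edgeR adjusted p = 0.0573).

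Among cotransporters, channels and regulators the calls in the averaged diet comparison were rises. In that comparison 6.59% of all genes rose and 5.01% fell. Slc4a4, an electrogenic sodium bicarbonate cotransporter, rose by 0.46 ± 0.06 (edgeR adjusted p = 1.83e-04), at 75.6 ± 7.15 CPM on HFHS and 55.1 ± 6.31 CPM on CD (SD, n = 8 each). Among 8 tested bicarbonate and cation-chloride cotransporters 4 rose, Slc4a4 with Slc4a7 (0.17 ± 0.05), Slc12a2 (0.20 ± 0.05) and Slc12a7 (0.23 ± 0.05). Among 9 tested sodium channel subunits 2 rose, Scn4b by 0.94 ± 0.14 and Scn4a by 0.80 ± 0.10. The channel partner Scn4b stood at 207 ± 37.1 CPM on HFHS and 109 ± 25.3 CPM on CD. Of 12 regulators tested 2 rose, the ubiquitin ligase Nedd4l by 0.19 ± 0.05 and the kinase Oxsr1 by 0.20 ± 0.03. Of the sodium-calcium exchangers, Slc8a2 (0.20 ± 0.15) and the mitochondrial Slc8b1 (−0.05 ± 0.07) did not pass, like Slc8a1. Of 7 sodium-proton exchangers tested 0 rose and 0 fell. The pump subunits held 1 rise (Atp1b2) and 0 falls among 4 tested, and the FXYD proteins 0 rises and 1 fall (Fxyd1) among 4 tested.

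Several of these calls ended when 1 library was left out or when the marker scores were added as covariates. Of the 59 genes 13 passed in the averaged diet comparison, against 9 with atrial and valve marker scores as covariates and 10 without CD untreated replicates 2 and 3. Calls over all genes fell too, from 1837 of 15841 in the main fit to 869 of 15841 with the covariates and 1404 of 16226 without those libraries. Leaving out both libraries ended the calls of Slc2a8 (edgeR adjusted p = 0.0816), Atp1b2 (0.107), Slc4a7 (0.189) and Slc12a7 (0.0606), and added Slc2a12. Without drug 3 passed, Slc4a4, Scn4a and Scn4b, and all 3 calls ended with those covariates, where 9 of all genes passed. All 3 also ended without those 2 libraries (edgeR adjusted p = 0.0919 for Slc4a4, 0.0691 for Scn4a and 0.159 for Scn4b), where Slc12a2 was the 1 listed gene called. Atrial scores were 0.382 to 2.7 in CD untreated and −1.21 to 0.577 in HFHS untreated, and valve scores 0.406 to 2.23 and −1.47 to 0.101. Diet and these scores therefore cannot be fully told apart without drug. Over the settings the estimates stayed at or above 0.321 for Slc4a4, 0.5085 for Scn4a and 0.6424 for Scn4b. In the averaged comparison with covariates Slc12a2 (edgeR adjusted p = 0.262), Slc12a7 (0.0777), Nedd4l (0.111) and Atp1b2 (0.35) no longer passed. Left out alone, CD untreated replicates 2 and 3, CD ertugliflozin replicates 2 and 4, HFHS untreated replicates 2, 3 and 4 and HFHS ertugliflozin replicates 1, 3 and 4 each ended the call of Slc4a7 (edgeR adjusted p = 0.051 to 0.0787). HFHS untreated replicate 2 and HFHS ertugliflozin replicate 1 each ended that of Slc12a2 (0.0527 and 0.0528). Over all 16 fits without 1 library the estimates stayed at 0.15 to 0.19 for Slc4a7 and 0.17 to 0.23 for Slc12a2. Within single arms, leaving out HFHS ertugliflozin replicate 1 ended the call of Slc4a4 with drug (edgeR adjusted p = 0.0579). For Scn4b the libraries that did so were CD untreated replicates 1, 2 and 3 and HFHS untreated replicates 2 and 3 without drug (0.0609 to 0.0716). With drug they were all libraries of the arm except CD ertugliflozin replicate 4 (0.0546 to 0.0911). The single-arm calls of Scn4b also ended with no low-count filter (0.0527 without drug and 0.0561 with it) and in fits of only the groups compared (0.0726 and 0.0553). Upper-quartile scaling ended the call of Slc4a7 (0.0596) and turned the direction of none of the genes named here as called.

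**Figure D3:**
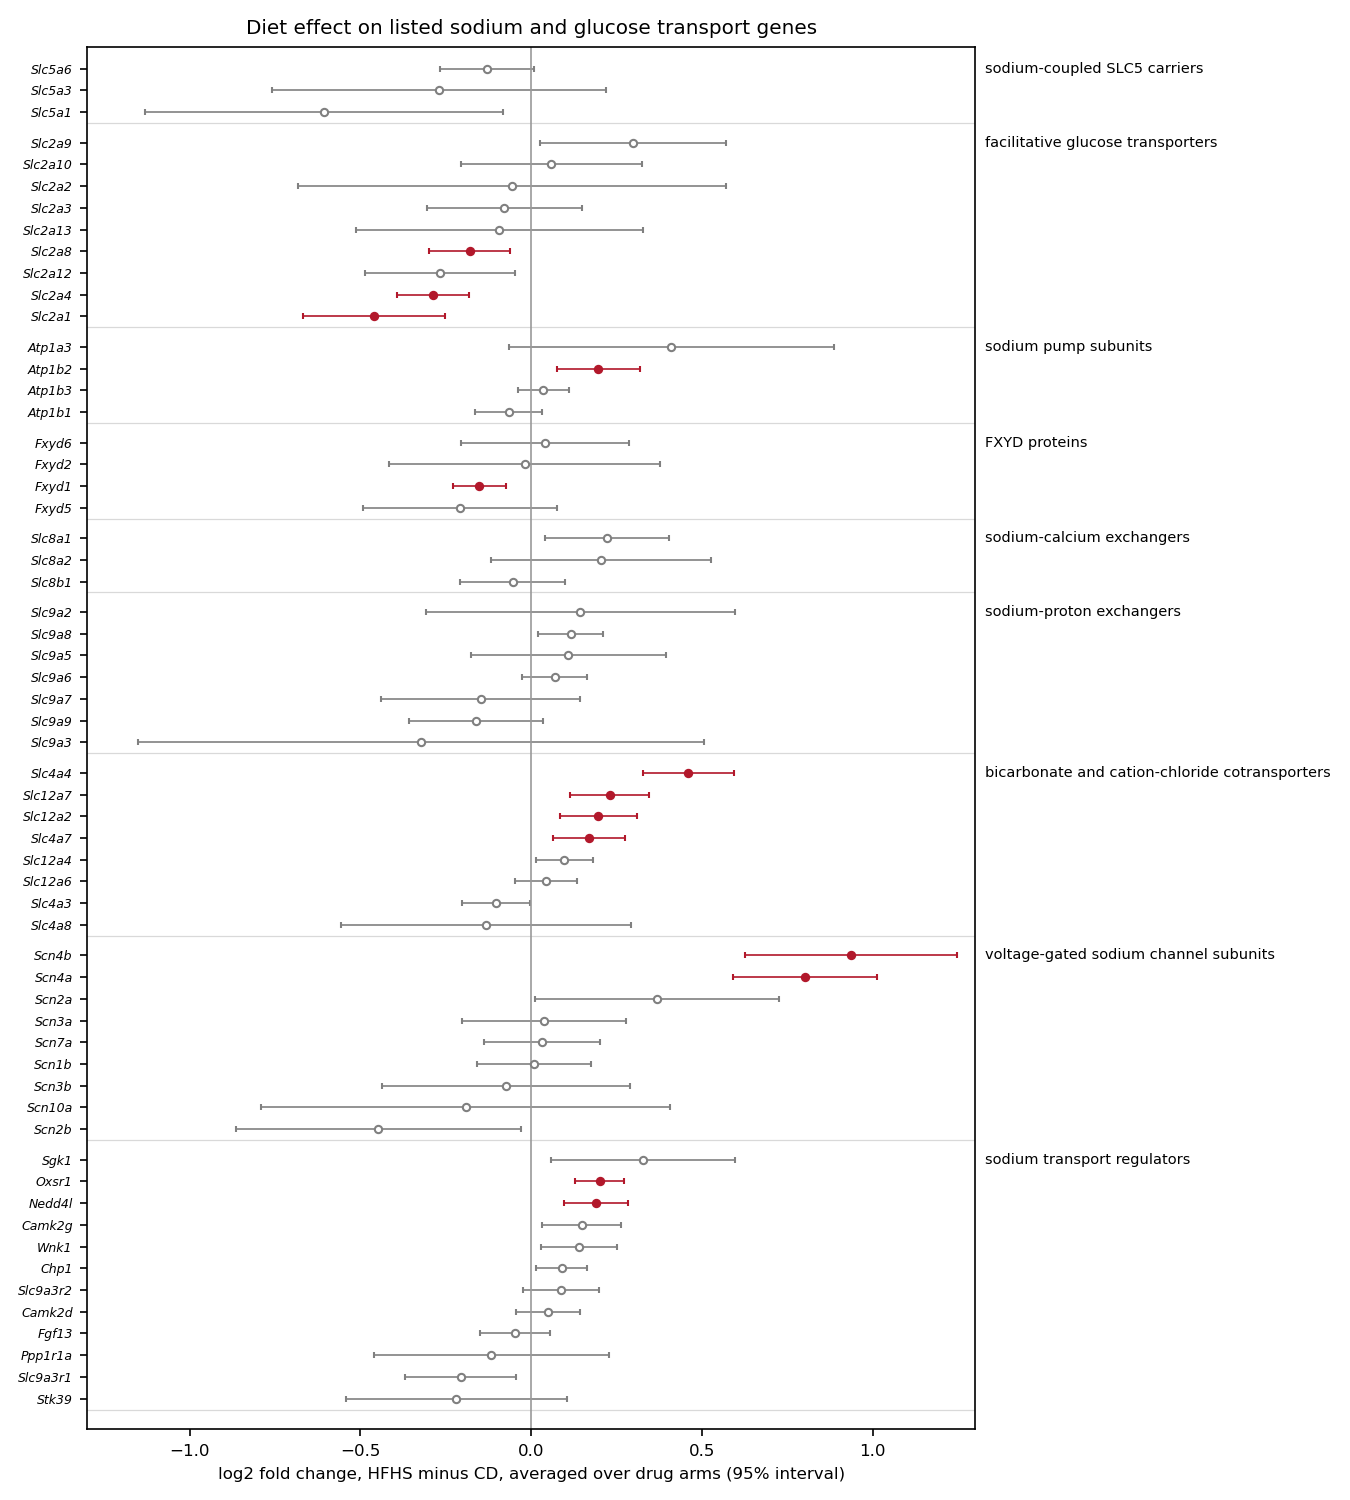
Log2 fold change, HFHS minus CD averaged over drug arms (horizontal axis), for the 59 tested genes of the transport lists, with 95% intervals as bars. Filled points passed edgeR's adjusted threshold of 0.05; of the members only Fxyd1 is filled, beside 9 rises, from Slc4a7 at 0.17 to Scn4b at 0.94, and falls of Slc2a1, Slc2a4 and Slc2a8.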

How the data were processed

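Poly(A)-selected, strand-marked libraries were sequenced, 1 per ventricle, per the labels' protocols. The deposited table holds the authors' raw read counts per Ensembl gene. The submitters' processing notes name the mm10 build with FastQC 0.11.7, STAR 2.6.0c, DESeq2 1.22.1 and featureCounts, listed beside Subread 1.6.2. For the annotation, strand setting and multi-mapping reads, nothing was given in the labels. Regularized log2 values deposited by the authors served as an alternative input. Of 53764 IDs, 53669 took a symbol from GENCODE M21 (GRCm38), the source of gene coordinates and exon lengths, and 95 did not; those took 0.00852% to 0.0106% of counts.

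Counts were filtered with filterByExpr, scaled by TMM and fitted in edgeR 4.0.16 (R 4.3.3) with 1 mean per group over all 16 libraries. The common biological coefficient of variation was 0.0947. SE is the log2 fold change over the square root of its F. CPM logs for correlations used a prior count of 2. The chi-square between replicates of a group, over its degrees of freedom, was 3.23 to 16.3, and each counted as 1 sample, and p-values measure the spread between these animals. Titles number replicates 1 to 4 in each group without saying what a number shares. Scripts were tested on simulated counts.

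All members were reported in every comparison. Of the transport lists, counts were given with the genes past the threshold by name, plus Slc2a1, Slc2a4 and Pdzk1ip1. Some genes of the lists are not reported here and stay out of the lists' counts. For each tested member the 3 genes of highest Pearson r were named, skipping model genes. The members and lists were chosen with earlier results of these data known. Alternatives were scaling by upper quartile or RLE, no low-count filter, a filter of 1 CPM in 4 libraries, limma 3.58.1 on the deposited values or through voom with sample weights, DESeq2 1.42.0, the replicate number as a block, atrial and valve marker scores as covariates, only the groups compared, and each library left out. Leaving out CD untreated replicates 2 and 3 together, the other length models and the ratios to cardiomyocyte markers were added after the values were seen.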

Additional observations from a re-analysis of the deposited data

Results flagged for a closer look

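Of 64 groups of 4 libraries examined for a library far from the other 3, 7 held one, by the gap to its nearest neighbour as a share of the group's range (Dixon's 95% limit). Chance gives such a gap in about 1 in 20 groups. For Slc5a1, HFHS untreated replicate 4 was low, at 0.303 CPM against 0.772 to 0.800 CPM in the other HFHS untreated libraries (gap over range 0.943). CD untreated replicate 2 was low for the same gene, at 0.982 CPM against 1.51 to 1.61 CPM (0.832). At 5 and 18 reads these values carry a large counting error. Leaving out either library left the Slc5a1 difference for diet without drug short of the threshold.

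The other 5 concern listed genes. For Slc2a1, HFHS ertugliflozin replicate 3 was high, at 13.55 CPM against 10.57 to 11.04 CPM (0.844), and CD untreated replicate 4 was high, at 23.4 CPM against 16.2 to 16.7 CPM (0.931). For Slc2a4, HFHS ertugliflozin replicate 3 was low, at 344 CPM against 362 to 363 CPM (0.933), and CD ertugliflozin replicate 4 was high, at 519 CPM against 426 to 439 CPM (0.859). CD ertugliflozin replicate 4 was also high for Slc2a8, at 21.1 CPM against 17.0 to 17.4 CPM (0.889). It was the highest CD ertugliflozin library for Fxyd1 as well, at 259 CPM. Without it the Fxyd1 diet difference averaged over drug arms still passed.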

How the results depend on the processing

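The 28 member results (4 genes in 7 comparisons) were recomputed in 296 alternatives and 448 fits without 1 library, of which 11 and 26 changed direction or call. The fall of Fxyd1 for diet averaged over drug arms passed in all 10 alternatives (values −0.18 to −0.10) and in all 16 fits without 1 library (−0.17 to −0.13). Calls gained were Slc8a1 for that comparison with limma-voom (0.24) and Fxyd1 for diet without drug with DESeq2 (−0.18). Signs turned for differences that passed under no setting. Slc8a1 for drug on HFHS gave 0.002673 with no filter, 0.0047 on the deposited log2 values and 0.07484 with marker covariates, and its diet-by-drug term 0.06937 with covariates. Atp1b1 for drug on CD gave 0.003525 with limma-voom and 0.005279 with covariates. Fxyd1 for drug on CD gave 0.000143 with no filter and 0.005503 with limma-voom, and for drug averaged over diets −0.001347 without CD untreated replicates 2 and 3 together. Causes were not tested.

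Without 1 library, Slc5a1 ranged over −0.41 to 0.17 for diet with drug and −0.0403 to 0.541 for drug on HFHS. Slc8a1 ranged over −0.000737 to 0.19 for drug on CD, −0.101 to 0.0880 for drug on HFHS, 0.17 to 0.29 for diet averaged and −0.004282 to 0.11 for drug averaged. Atp1b1 ranged over −0.0443 to 0.0303 for drug on CD, −0.006966 to 0.10 for drug on HFHS and −0.007658 to 0.0466 for drug averaged, and Fxyd1 over −0.0401 to 0.0230 for drug on CD.

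Same-numbered libraries had correlations of −0.24 to 0.313 (median 0.056, 24 pairs), against −0.264 to 0.267 for other numbers (median −0.0226, 72 pairs). These ranges overlap and the titles do not say what a number shares. The correlations therefore cannot decide whether animals of the same number were paired. With the replicate number as a block the Fxyd1 diet difference was −0.1508 (edgeR adjusted p = 0.0138), and the block changed no member's call. Among listed genes it ended those of Slc2a8 (0.0651) and, in each arm, Scn4b (0.0602 and 0.0598).

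All-gene counts varied more. Diet without drug had 327 calls with edgeR, 609 with DESeq2, 743 with limma-voom, 9 with marker covariates and 97 without CD untreated replicates 2 and 3. Diet with drug had 584 with edgeR and 888 with DESeq2, and diet averaged had 1837 with edgeR and 869 with covariates. Drug on CD had 3 with edgeR and 9 with DESeq2, and the diet-by-drug term 3 and 18. Depth limits Slc5a2, at 0 to 3 reads, and Slc5a1, at 5 to 31.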

Other observations

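Marker lists of other cell types gave these counts for HFHS against CD averaged over drug arms, by edgeR adjusted over all genes, of which 6.59% rose and 5.01% fell. Among 10 endothelial markers 2 rose, Cdh5 by 0.28 ± 0.05 and Kdr by 0.34 ± 0.05, and 0 fell (median 0.13). Among 10 pericyte and smooth muscle markers 2 rose, Pdgfrb by 0.18 ± 0.05 and Notch3 by 0.27 ± 0.05 (median 0.08), and among 10 fibroblast markers Pdgfra rose by 0.30 ± 0.05 (median 0.11). Conduction tissue markers (7 tested, median −0.17), atrial markers (9 tested, median −0.86), valve and cartilage markers (9 tested, median −1.01), macrophage markers (10 tested, median −0.20), erythroid markers (7 tested, median −0.10), adipocyte markers (4 tested, median −1.33), and nerve and Schwann cell markers (8 tested, median 0.00183) held 0 calls, as did the 1 tested kidney tubule marker. The median over all genes was −0.01.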
